A study of Homo sapiens with 24 samples.

Results

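H460 is an established human large cell lung carcinoma line. RNA from its polysomal fractions, the mRNAs bound by several ribosomes at once, was compared between cells transfected with an siRNA against RICTOR (siRIC) and cells given the control siRNA (siNT). The comparison used every library labelled as H460 and polysomal, 3 with siNT and 3 with siRIC, which is 6 of the 24 libraries of the series. The study sequenced total RNA and polysomal RNA of A549 and H460 lung cancer cells under both siRNAs to follow RICTOR depletion. The siNT groups were labelled wild type and the siRIC groups Rictor knockdown, and all were grown in RPMI with 10% serum; the sources used here do not give the time after transfection, the siRNA sequences or the number of siRNAs. Libraries carry replicate numbers 1, 2 and 3, which the labels record as batches, so same-numbered libraries of both siRNAs were treated as pairs 1, 2 and 3. In the library names these H460 replicates carry the numbers 4, 6 and 7. A549 replicates 2 and 3 also carry 4 and 6 in their names, and pairs were formed within each line.

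RICTOR is the scaffold that defines mTOR complex 2 (mTORC2), a kinase complex that phosphorylates AKT, SGK and conventional protein kinase C at their hydrophobic or turn motifs. Through AKT it restrains FOXO transcription factors and favours lipid synthesis by the SREBP factors, which are held in the endoplasmic reticulum (ER) by INSIG proteins until sterols run low. An mRNA level in polysomal RNA depends on how much of the mRNA the cell holds and on the share of it that is being translated.

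Polysomal libraries of H460 held 19087204 to 25152485 estimated counts, and mitochondrially encoded mRNAs, which are translated outside the cytosol, took 2.04% to 4.18% of them against 13.5% to 17.1% in H460 total RNA. The epithelial keratins KRT8, KRT18 and KRT19 each stood between 879 and 2454 CPM (counts scaled to a common library total, without TMM scaling in this check) in the 6 libraries, while CDH1 was at 0 and EPCAM did not exceed 1.10 CPM. Of 12 leukocyte markers 6 were at 0 in every library, CD3D, CD3E, MS4A1, NKG7 and TYROBP among them. CD14 stood at 5.90 to 10.3 CPM over the 6 libraries. FAP was the 1 of 10 fibroblast markers at 0 in every library. Of these 10 markers 5 averaged at least 1 CPM, LUM being highest at 54.6 to 137 CPM. The endothelial markers PECAM1, CDH5, CLDN5 and ERG, 4 of 8 listed, were also at 0 in every library. The summed leukocyte markers spanned 60.7 to 129 CPM under siNT and 44.7 to 94.8 with siRIC, most of it CD68, a lysosomal protein that epithelial lines also make and whose mRNA fell (log2 change −0.46 ± 0.08) in the paired fit described next, and the summed fibroblast markers 86.0 to 172 and 91.8 to 161 CPM. The 8 endothelial markers summed to 132 to 331 CPM under siNT and 131 to 296 under siRIC, nearly all of it EGFL7 (125 to 328 CPM over the 6 libraries), with KDR at 2.60 to 6.78 CPM. Both libraries of number 3 stood apart. Counts of the other numbers differed from each other by a chi-square of 57.2 (siNT) and 58.2 (siRIC) per degree of freedom, and from number 3 by 137 to 200. KRT18, for example, was at 962 and 905 CPM in the number 3 libraries and between 1721 and 1930 CPM in the rest.

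The way replicate numbers entered the model set how many genes passed. Without the pairing, edgeR's quasi-likelihood test over 14586 genes called 0 genes in either direction at an adjusted p under 0.05 (0.0% of genes tested). In that fit 252 genes had an unadjusted p under 0.05, the lowest adjusted p was 0.620, for RICTOR, and DESeq2 called 1 gene. With the pairing, the same test called 92 genes higher (0.631%) and 127 lower (0.871%) with siRIC, 219 in all (1.5%). This paired fit took the number as a block within each fraction and was chosen after the counts were seen. The unpaired fit had been planned as the main one. An additive block over both fractions called 0 genes. A block in the polysomal libraries alone called 100, 22 higher and 78 lower. At an unadjusted p under 0.05 the paired fit held 2669 genes, 7.32% of all genes tested lower and 11% higher, and counts of list members at that level are to be read against these shares. DESeq2 with the same pairing called 263 of the 14586 genes lower and 147 higher. DESeq2 counts of list members come from that paired fit and are to be read against these numbers. The typical standard error (SE) of a log2 change was 0.281 without and 0.102 with the pairing. From here on "rose" and "fell" mean an adjusted p under 0.05 in the paired fit. No such call passed in the unpaired fit. Over all genes tested 0.631% rose and 0.871% fell. Counts of list members that rose or fell are to be read against these shares.

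Most paired changes were small. Of the 14586 genes tested 8251 had a log2 change above 0 and 6334 below 0. Counts of list members above or below 0 are to be read against these numbers. The median log2 change was −0.46 among the genes that fell and 0.41 among those that rose, against 0.03 over all genes tested, and 6 genes in each direction changed more than 2-fold, several of them low-level features that cannot be read as single genes. Of the 219 genes, 215 had the same sign in all 3 pairs, as did 35.5% of all genes tested (21.3% higher and 14.2% lower). The siNT and siRIC levels did not overlap for 40 of the 219, and for 2.89% of all genes. The paired fit picked the 219 from these same libraries and favours genes whose pairs agree, so neither count is separate support. Most calls depended on single pairs. Without both number 3 libraries 13 genes passed, 11 of them among the 219; without pair 1 the count was 61, with 48 of the 219, and without pair 2 it was 620, with 183 of them. In 1 of these 3 fits 151 of the 219 passed, and 27 passed in 0. Directions held for 219, 219 and 218 of the 219 genes in those 3 fits. Each of those fits reuses pairs that picked the genes, so a kept direction is no separate support. Over all 14586 genes the differences of pairs 1 and 2 correlated with r = 0.062. For pairs 1 and 3 r was 0.135, and for pairs 2 and 3 it was 0.057.

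**Figure D1:**
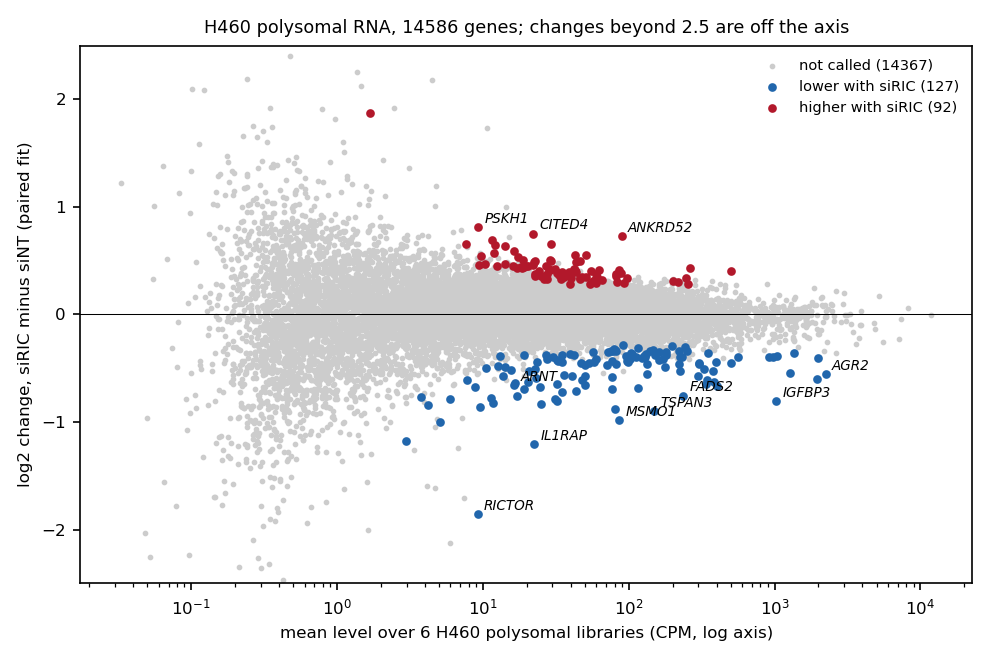
Log2 change between siRIC and siNT in H460 polysomal RNA (paired fit, vertical axis) against mean level over the 6 libraries (CPM, log axis), 1 point per gene. Blue points are the 127 genes that fell and red points the 92 that rose; 34 genes with a change beyond 2.5 lie off the axis, 7 of them called. RICTOR stands lowest among the labelled genes, and most called genes lie within 1 log2 unit of 0.

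The targeted gene was lower in every siRIC library. RICTOR mRNA (chr5:38937920-39074399, RefSeq GRCh38.p14) was at 10.7, 9.92 and 22.9 CPM in the siNT libraries 1 to 3 and at 3.06, 3.52 and 5.08 CPM in the siRIC libraries (CPM scaled by TMM, here and below), so the groups did not overlap. The mean went from 14.5 ± 7.27 to 3.88 ± 1.06 CPM (SD, n = 3 each), a log2 change of −1.85 ± 0.14 (SE), adjusted p = 0.000262. Values after ± are the SE of the paired fit wherever no SD is named, and all adjusted p are over all genes tested. Lower RNA per cell and fewer cells holding the transcript cannot be told apart in such pooled RNA. Of the 11 mTORC1 and mTORC2 subunits tested, RICTOR was the 1 called gene. MTOR itself had a log2 change of 0.15 ± 0.06 (adjusted p = 0.248), MAPKAP1 (the mTORC2 subunit SIN1) 0.10 ± 0.08 (adjusted p = 0.566) and RPTOR, the scaffold of mTORC1, 0.19 ± 0.11 (adjusted p = 0.382). Among 21 AGC kinases and phosphatases of the AKT axis 0 passed in edgeR and 0 in DESeq2; 9 had an unadjusted p under 0.05, 8 of them higher (against 11% of all genes), such as AKT2 at 0.26 ± 0.07 (adjusted p = 0.0829).

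ARNT, which encodes HIF-1β, the partner that HIF-1α and the aryl hydrocarbon receptor need to bind DNA, fell. Its polysomal mRNA (chr1:150809713-150876599) was at 17.6, 18.2 and 24.6 CPM under siNT and 10.7, 13.6 and 13.8 CPM under siRIC. Each siRIC library lay below each siNT library, with a log2 change of −0.66 ± 0.09 (SE), adjusted p = 0.0120. Without pair 3 the adjusted p was 0.0943, and the call was also lost without pair 1. HIF1A was at 106, 100.3 and 192 against 105, 99.2 and 147 CPM, a change of −0.14 ± 0.08 (adjusted p = 0.367); the number 3 libraries were highest under both siRNAs, and the difference lay mostly in that pair. Of 11 bHLH-PAS factors tested, ARNT was the 1 that changed; AHR had 0.31 ± 0.07 (adjusted p = 0.0613).

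HIF target genes outside glycolysis had a median log2 change of −0.09, against 0.03 over all genes, with pair medians of 0.06, −0.22 and −0.07. Of the 37 tested 27 were below 0, as were 6334 of all 14586 genes tested. In edgeR 0 of the 37 passed. At an unadjusted p under 0.05, 6 lay lower and 1 higher, against 7.32% and 11% of all genes. The paired DESeq2 fit called 1 of the 37 lower, against 263 of all genes tested. The smallest p was that of EGLN3, the HIF prolyl hydroxylase that HIF itself induces, with −0.42 ± 0.11 (adjusted p = 0.0733). VEGFA, the vascular growth factor, had −0.12 ± 0.09 (adjusted p = 0.527), and CA9, a membrane carbonic anhydrase, −0.75 ± 1.00 (adjusted p = 0.745). Of 24 glycolysis and glucose or lactate transport genes 0 passed in edgeR, with 5 lower and 1 higher at an unadjusted p under 0.05, against the same shares, and 3 called by DESeq2. The median of the 24 glycolysis genes was 0.02 and their pair medians were 0.11, −0.15 and 0.03.

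**Figure D2:**
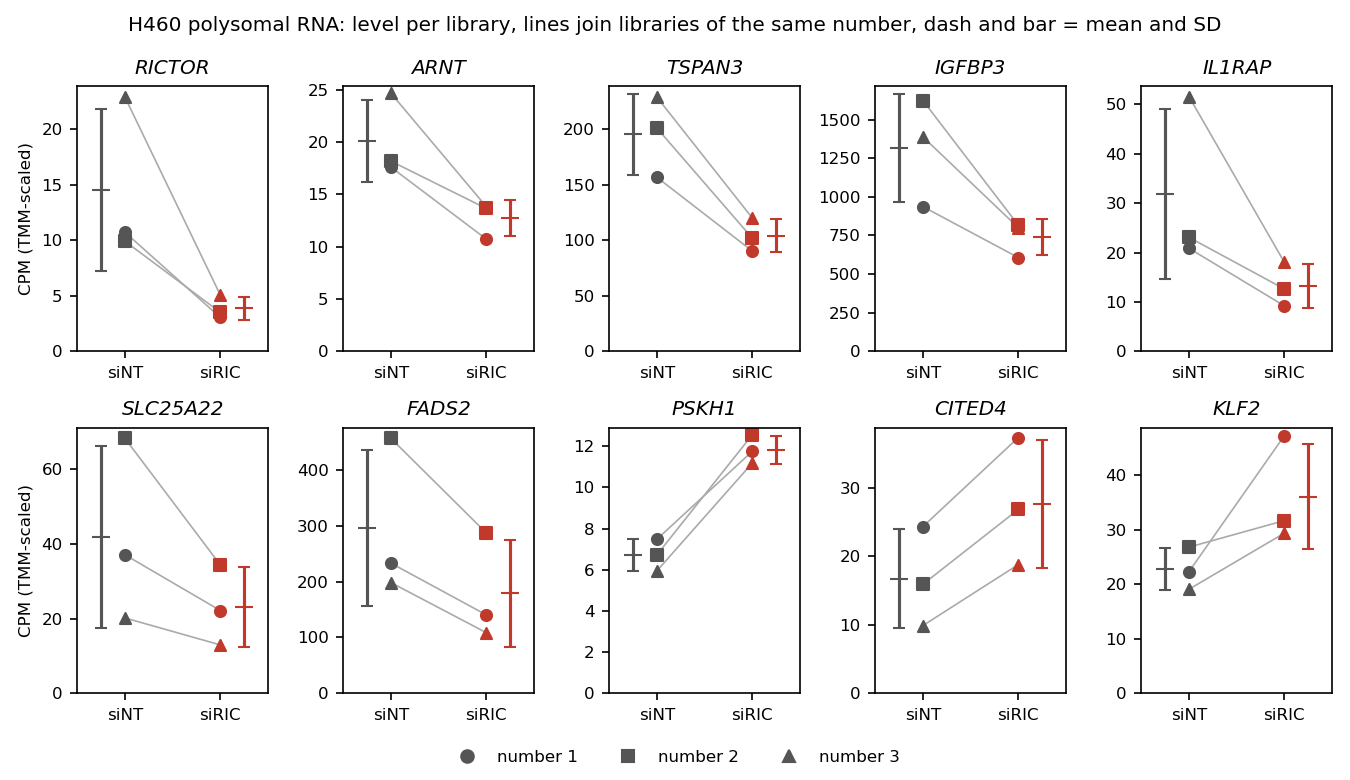
Polysomal mRNA levels (CPM, linear axes from 0) of 10 genes in the 6 H460 libraries, with grey lines joining same-numbered libraries and a dash and bar for the mean and SD of each group. RICTOR, ARNT, TSPAN3, IGFBP3 and IL1RAP separate the groups completely; SLC25A22, FADS2 and CITED4 overlap between groups while moving the same way in all 3 pairs.

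A small group of genes passed with any 1 pair left out. There were 9 of them, all lower: RICTOR, IL1RAP, TSPAN3, QDPR, SLC25A22, IGFBP3, TMUB2, FADS2 and SLC35G1, of which TMUB2 and SLC35G1 are named here after their values were seen. TSPAN3, a membrane tetraspanin (chr15:77041404-77071109), was at 157, 201 and 229 CPM under siNT and 90.3, 102 and 120.0 CPM under siRIC, with no overlap and a log2 change of −0.90 ± 0.07 (SE), adjusted p = 0.000262. IGFBP3, a secreted carrier of insulin-like growth factors (chr7:45912245-45921272), stood at 936, 1623 and 1388 against 607, 817 and 800.4 CPM, likewise without overlap (log2 change −0.80 ± 0.09, adjusted p = 0.00278). IL1RAP, the co-receptor that interleukin-1 receptors need to signal (chr3:190514085-190659750), was at 20.9, 23.1 and 51.6 against 9.22, 12.6 and 18.1 CPM (log2 change −1.21 ± 0.12, adjusted p = 0.00206).

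QDPR, which regenerates the tetrahydrobiopterin cofactor of aromatic amino acid hydroxylases, went from 34.2, 37.2 and 24.1 to 18.5, 21.4 and 13.8 CPM without overlap (log2 change −0.83 ± 0.09, adjusted p = 0.00278). SLC25A22, a mitochondrial glutamate carrier, went from 37.1, 68.2 and 20.2 to 22.2, 34.4 and 13 CPM (log2 change −0.81 ± 0.08, adjusted p = 0.00250). Its number 2 libraries were highest in both groups, so that the groups overlapped although each pair fell. TMUB2, a membrane protein with a ubiquitin-like domain, changed by −0.76 ± 0.08 (adjusted p = 0.00278) and SLC35G1 by −0.68 ± 0.07 (adjusted p = 0.00278). Among the other 7, leaving out 1 library instead of 1 pair raised the adjusted p above 0.05 for QDPR (to 0.0521) and IGFBP3 (to 0.0545), in 1 of 12 fits each.

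Of the 47 lists examined, that of cholesterol synthesis held the most called genes. The lists were chosen with earlier results of these data known, so the ranking and the shares are a description and not a test. Of 28 listed genes 27 were tested, 8 fell (29.6%, against 0.871% of all genes), 0 rose and 26 of 27 were below 0, with a median log2 change of −0.33 against 0.03 over all genes. The pair medians were −0.35, −0.20 and −0.51. In total RNA 10 of the 27 fell, with a median of −0.41. In the fit without pairing 0 members were called, 4 had an unadjusted p under 0.05, all lower, and the median was −0.33. Without pair 3 the paired fit called 0 of the 8, and INSIG1, MSMO1, SQLE, FDFT1 and NSDHL also lost the call without pair 1.

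The genes that fell include enzymes from squalene synthesis onward and a regulator of the pathway. INSIG1, the ER anchor of the SREBP escort protein and itself an SREBP target, was at 88.7, 119 and 99.5 CPM under siNT and 42.2, 86.8 and 45.5 CPM under siRIC (log2 change −0.88 ± 0.16, adjusted p = 0.0236). MSMO1, the methylsterol monooxygenase, was at 68.2, 116 and 154 against 30.0, 82.8 and 63.2 CPM (log2 change −0.98 ± 0.15, adjusted p = 0.0155). In both genes pairs 1 and 3 moved by more than 1 log2 unit, while pair 2 differed by −0.46 in INSIG1 and −0.49 in MSMO1. EBP, a sterol isomerase, was at 326, 581 and 231 against 243, 429 and 147 CPM (log2 change −0.50 ± 0.07, adjusted p = 0.00876). Levels of EBP were highest in the number 2 libraries of both groups.

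CYP51A1 (lanosterol demethylase), SQLE (squalene epoxidase), FDFT1 (squalene synthase) and NSDHL (a sterol dehydrogenase) changed by −0.52 ± 0.08, −0.59 ± 0.11, −0.42 ± 0.08 and −0.36 ± 0.07. HMGCS1, the synthase that feeds the mevalonate pathway, did not pass (log2 change −0.64 ± 0.18, adjusted p = 0.0946). HMGCS1 differed by −1.02 and −0.87 in pairs 1 and 3 and by −0.06 in pair 2. SREBF2, which encodes the SREBP factor of the sterol pathway, had −0.07 ± 0.07 (adjusted p = 0.663). CYP51A1 and other members have processed pseudogenes, and reads of near-identical copies may have been split between them.

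Promoters of these genes are shown because NF-Y, which binds CCAAT boxes, is known to act with SREBP factors at sterol genes. The RefSeq table (GRCh38.p14, 250 bases before to 50 after each start) held 21 of the 27 tested sterol genes, and 16 of the 21 promoters (76.2%) contained the letters CCAAT on either strand, as did 45.5% of the 22 matched fatty acid genes, against 36.6% of the 10847 promoters of tested genes, 40.8% of 103 promoters of genes that fell and 36.1% of 72 of genes that rose. Of the 10 matched sterol and fatty acid genes that fell, 5 held CCAAT, and CYP51A1, ELOVL6, FADS1, FADS2 and HACD1 did not. The sterol element core TCACNCCAC was in 1.05% of promoters of tested genes, in 0 of the 10 and in 2 of the 103. The letters ACGTG, a form of the hypoxia response element core, were in 26.8%, 25.2% and 20.8% of tested, fallen and risen genes. A match is a description of these letters, not a binding site. CCAAT (or ATTGG, where it lies on the other strand) is in capitals below for 4 fallen lipid genes chosen because they hold it, INSIG1 (chr7:155297628-155297927), MSMO1 (chr4:165327419-165327718), EBP (chrX:48521558-48521857) and SCD (chr10:100346983-100347282), all read 5′ to 3′ on the plus strand, and no CCAAT overlapped another searched motif.
INSIG1: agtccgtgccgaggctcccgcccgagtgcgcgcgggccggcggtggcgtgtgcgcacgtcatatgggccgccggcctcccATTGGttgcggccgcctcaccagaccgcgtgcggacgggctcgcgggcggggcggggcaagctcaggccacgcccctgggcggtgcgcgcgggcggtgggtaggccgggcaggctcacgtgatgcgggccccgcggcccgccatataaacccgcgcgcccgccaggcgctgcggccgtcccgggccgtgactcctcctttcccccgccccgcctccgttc
MSMO1: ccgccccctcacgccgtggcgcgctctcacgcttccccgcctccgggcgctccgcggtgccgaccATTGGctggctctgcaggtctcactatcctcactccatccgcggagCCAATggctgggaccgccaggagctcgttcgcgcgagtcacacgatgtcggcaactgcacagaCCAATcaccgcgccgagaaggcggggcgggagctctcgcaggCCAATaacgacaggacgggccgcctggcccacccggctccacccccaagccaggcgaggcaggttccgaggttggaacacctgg
EBP: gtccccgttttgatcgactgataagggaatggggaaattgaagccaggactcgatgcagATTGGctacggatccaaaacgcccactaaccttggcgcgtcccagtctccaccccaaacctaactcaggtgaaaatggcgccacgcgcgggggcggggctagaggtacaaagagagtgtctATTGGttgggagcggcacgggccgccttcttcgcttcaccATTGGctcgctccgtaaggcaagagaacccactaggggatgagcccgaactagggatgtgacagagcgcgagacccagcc
SCD: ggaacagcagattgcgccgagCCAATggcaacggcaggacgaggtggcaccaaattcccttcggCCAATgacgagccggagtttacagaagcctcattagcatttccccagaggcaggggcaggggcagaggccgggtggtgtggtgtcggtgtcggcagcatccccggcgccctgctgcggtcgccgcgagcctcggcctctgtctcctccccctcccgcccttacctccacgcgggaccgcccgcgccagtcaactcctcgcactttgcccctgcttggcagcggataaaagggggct
MSMO1 held 4 such boxes, EBP 3, SCD 2 and INSIG1 1. INSIG1 also held ACGTG or its reverse complement, with 3 matches over both strands, a pair of which overlap in a palindrome; MSMO1, EBP and SCD had 0.

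Among fatty acid genes, desaturases and the elongase ELOVL6 were among the calls. Of 24 tested genes of fatty acid synthesis, elongation and desaturation 5 fell (20.8%, against 0.871% of all genes) and 0 rose. Below 0 lay 23 of the 24, with a median of −0.14 against 0.03 over all genes. FADS2, the first desaturase of polyunsaturated fatty acid synthesis, was at 233, 456 and 198 CPM under siNT and 140.4, 287 and 109 CPM under siRIC (log2 change −0.75 ± 0.07, adjusted p = 0.00206), with pair differences of −0.73, −0.67 and −0.87. SCD, the desaturase that makes oleic acid, was at 1087, 1485 and 2021 against 775, 1118 and 1226 CPM (log2 change −0.54 ± 0.08, adjusted p = 0.0120). ELOVL6, the elongase of palmitate, FADS1, the desaturase next in line after FADS2, and HACD1, a dehydratase of the elongation cycle, changed by −0.69 ± 0.10, −0.52 ± 0.08 and −0.37 ± 0.08. FASN, ACLY and SREBF1 did not pass. FASN had −0.15 ± 0.09 (adjusted p = 0.394) and ACLY −0.06 ± 0.06 (adjusted p = 0.644), and SREBF1 had −0.05 ± 0.09 (adjusted p = 0.806). FADS2 also passed without pair 3, and the other 4 did not, SCD with an adjusted p of 0.0873. ELOVL6, FADS1 and HACD1 also lost the call without pair 1, and HACD1 lost it without pair 2 as well.

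**Figure D3:**
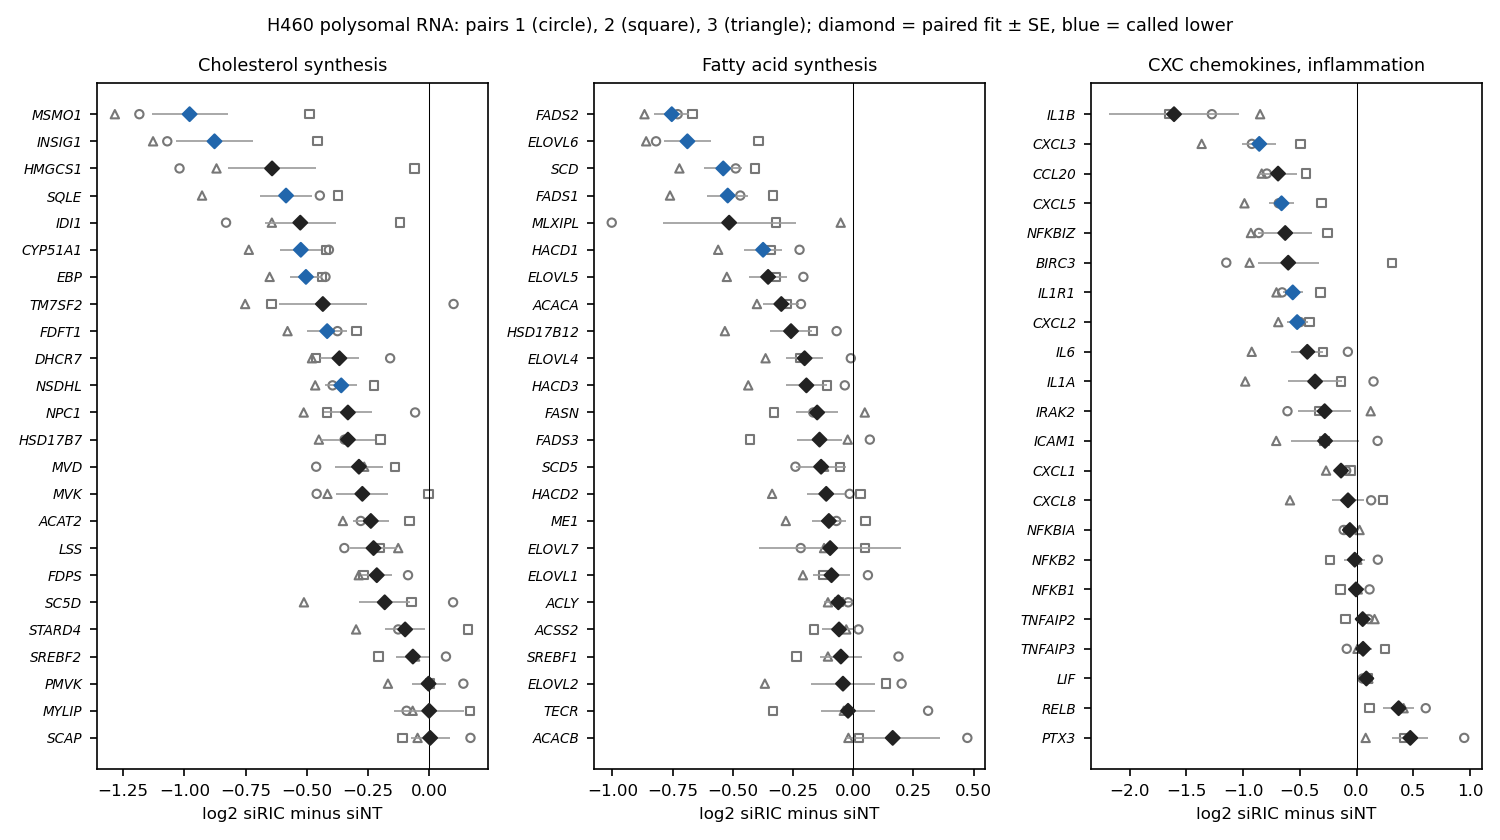
Log2 change between siRIC and siNT in H460 polysomal RNA for the tested genes of 3 lists that are reported here, with open symbols for the 3 pairs and diamonds for the paired fit (bar, SE). Blue diamonds mark the 7, 5 and 4 drawn genes that fell; pair 3 (triangles) lies furthest left for many of them.

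Sphingolipid genes showed a smaller shift. Of 52 tested genes of sphingolipid synthesis and turnover 4 fell (7.69%, against 0.871% of all genes), 0 rose and 37 were below 0. The median was −0.10, against 0.03 over all genes, with pair medians of 0.04, −0.14 and −0.21. KDSR, the reductase of de novo sphingoid base synthesis, was at 51.0, 55.3 and 78.5 CPM under siNT and 40.5, 41.7 and 51.4 CPM under siRIC (log2 change −0.45 ± 0.08, adjusted p = 0.0183). CERS6, a ceramide synthase, was at 89.3, 123 and 223 against 70.5, 104 and 149 CPM (log2 change −0.39 ± 0.08, adjusted p = 0.0397), with the highest levels of both groups in number 3. ACER3, an alkaline ceramidase, and B4GALT5, a lactosylceramide synthase, changed by −0.37 ± 0.07 and −0.40 ± 0.09; B4GALT5 passed by a margin too small to show at 3 digits (adjusted p = 0.049997).

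Subunits of serine palmitoyltransferase, which makes the first committed step, did not pass. SPTLC1 had −0.27 ± 0.09 (adjusted p = 0.157), SPTLC2 −0.16 ± 0.09 (adjusted p = 0.409) and SPTLC3 0.05 ± 0.10 (adjusted p = 0.856). Of the other ceramide synthases, CERS5 had −0.23 ± 0.08 (adjusted p = 0.175) and CERS2 −0.15 ± 0.08 (adjusted p = 0.365). The sphingosine kinase SPHK1 had −0.34 ± 0.11 (adjusted p = 0.128), the lyase SGPL1 0.10 ± 0.09 (adjusted p = 0.603) and the glucosylceramide synthase UGCG 0.15 ± 0.07 (adjusted p = 0.304). Without pair 3 none of the 4 passed in the edgeR paired fit, with adjusted p from 0.129 for KDSR to 0.235 for B4GALT5, without pair 1 only KDSR of the 4 did, and at an unadjusted p under 0.05 in the full paired fit 13 sphingolipid genes lay lower and 1 higher, with 6 called lower by DESeq2.

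ER chaperones and unfolded protein response genes lay mostly below 0. Of 28 genes 3 fell (10.7%, against 0.871% of all genes), 0 rose and 25 were below 0. The median was −0.22, against 0.03 over all genes. An unadjusted p under 0.05 was reached by 15 of the 28, all lower, against 7.32% of all genes. MANF, a secreted factor induced by ER stress, was at 408, 496 and 501 CPM under siNT and 274, 361 and 279 CPM under siRIC with no overlap (log2 change −0.62 ± 0.08, adjusted p = 0.00876). HERPUD1 and DERL2, which act in ER-associated degradation, changed by −0.37 ± 0.08 and −0.33 ± 0.07. HSPA5, the main ER chaperone, had −0.36 ± 0.09 (adjusted p = 0.0601), and XBP1 −0.15 ± 0.12 (adjusted p = 0.541). The pair medians were 0.02, −0.28 and −0.38, so pair 1 did not share the shift. None of the 3 passed without pair 3, where MANF had an adjusted p of 0.0576, and HERPUD1 and DERL2 also lost the call without pair 1. HERPUD1 lost it without pair 2 as well.

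Neutrophil-attracting chemokines and the interleukin-1 receptor fell beside IL1RAP. Of 22 tested genes of the list of CXC chemokines and inflammation 4 fell (18.2%, against 0.871% of all genes) and 0 rose. The median was −0.28, against 0.03 over all genes, with pair medians of −0.09, −0.19 and −0.64. CXCL5 was at 325, 554 and 604 CPM under siNT and 202, 447 and 304 CPM under siRIC (log2 change −0.66 ± 0.11, adjusted p = 0.0194). CXCL3 was at 7.15, 21.1 and 7.65 against 3.73, 14.9 and 2.91 CPM (log2 change −0.86 ± 0.15, adjusted p = 0.0204) and CXCL2 changed by −0.52 ± 0.09; number 2 held the highest levels of both genes, and reads of these close paralogs may have been divided between them. IL1R1, the receptor chain that pairs with IL1RAP, was at 33.8, 37.6 and 57.3 against 21.4, 30.2 and 35.1 CPM (log2 change −0.56 ± 0.09, adjusted p = 0.0155). IL1B, at under 1 CPM in every library, had −1.61 ± 0.58 (adjusted p = 0.176), and PTX3 lay higher with 0.47 ± 0.16 (adjusted p = 0.147). Without pair 3 all 4 lost the call, with adjusted p between 0.110 and 0.152, as they did without pair 1.

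Further falls named by size were those of GJA5, a gap junction connexin, from 4.69, 7.52 and 8.16 to 2.85, 3.87 and 3.34 CPM (log2 change −1.0 ± 0.21, adjusted p = 0.0409), MAN1A2, a Golgi mannosidase of N-glycan trimming, from 22.7, 33.3 and 65.0 to 15.1, 21.5 and 30.8 CPM (log2 change −0.79 ± 0.10, adjusted p = 0.00876), and ANKRD13C, from 13.5, 10.6 and 20.9 to 6.53, 8.56 and 10.0 CPM (log2 change −0.82 ± 0.14, adjusted p = 0.0183). Without pair 3 their adjusted p were 0.244, 0.0533 and 0.185, and GJA5 and ANKRD13C also lost the call without pair 1. GJA5 lost it without pair 2 as well. Among 37 NRF2 targets and aldo-keto reductases, ALDH3A1, an aldehyde dehydrogenase, and MGST1, a membrane glutathione transferase, fell (−0.40 ± 0.06 and −0.39 ± 0.07), and the list's median was −0.02; both lost the call without pair 3, and MGST1 also without pair 2. CCNG1, a p53 target, was at 129.9, 111 and 187 against 69.9, 88.4 and 106 CPM (log2 change −0.68 ± 0.12, adjusted p = 0.0234) and was the 1 changed gene of 31 p53 targets, whose median was 0.02; it lost the call without pair 3 and without pair 1. Cytochromes induced by the aryl hydrocarbon receptor and of the CYP4F family were all 7 below 0 with a median of −0.17; 0 passed in edgeR, 1 had an unadjusted p under 0.05 and DESeq2 called 1.

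PSKH1, a serine kinase of the Golgi and nucleus, had the largest rise among called genes with a conventional symbol, a mean of at least 5 CPM and the same sign in 3 pairs. It was at 7.49, 6.73 and 5.95 CPM under siNT and 11.8, 12.6 and 11.2 CPM under siRIC, with every siRIC library above every siNT library (log2 change 0.82 ± 0.11, adjusted p = 0.00876). CITED4, a transcriptional co-regulator, was at 24.4, 15.9 and 9.91 against 37.3, 26.9 and 18.8 CPM (log2 change 0.75 ± 0.09, adjusted p = 0.00618); its level was highest in number 1 and lowest in number 3 under both siRNAs, and each pair rose. ANKRD52, a regulatory subunit of a serine/threonine phosphatase, was at 64.4, 108 and 36.4 against 96.0, 149 and 82.4 CPM (log2 change 0.73 ± 0.11, adjusted p = 0.0140), with the largest difference in pair 3. Without pair 3 these 3 had adjusted p of 0.0873, 0.0550 and 0.0512.

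KLF2, a zinc-finger transcription factor, was at 22.3, 26.8 and 19.1 CPM under siNT and 47.2, 31.7 and 29.4 CPM under siRIC (log2 change 0.65 ± 0.13, adjusted p = 0.0390), without overlap but with pair differences from 0.24 to 1.08. HES4, a bHLH repressor, was at 13.9, 11.9 and 7.55 against 21.9, 17.4 and 12.3 CPM (log2 change 0.63 ± 0.10, adjusted p = 0.0155), and TMEM160 at 40.6, 41.4 and 22.5 against 63.6, 54.8 and 34.8 CPM (log2 change 0.56 ± 0.07, adjusted p = 0.00876). The remaining rises named by size were PTPN21, a tyrosine phosphatase (0.66 ± 0.11), ANKRD33B (0.64 ± 0.11), the extracellular matrix genes MATN3 (0.59 ± 0.12) and COL3A1 (0.57 ± 0.09), the kinesin light chain KLC2 (0.55 ± 0.08) and AADACP1 (0.69 ± 0.12), a transcribed pseudogene whose reads may be shared with its parent gene. COL3A1 is also on the fibroblast marker list, of whose 10 markers 5 averaged at least 1 CPM, LUM being highest at 54.6 to 137 CPM (without TMM scaling), and FAP was at 0; their part in this rise was not tested. All of these lost the call without pair 3, with adjusted p from 0.0610 for AADACP1 to 0.217 for KLF2, and ANKRD33B was the 1 of them that passed without pair 1. MATN3 also lost the call without pair 2.

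FOXO factors and their targets leaned upward. Of 20 tested genes 19 were above 0, against 56.6% of all genes, with a median of 0.14 and pair medians of 0.18, 0.11 and 0.18. IRS1, the insulin receptor substrate that FOXO factors induce, was the 1 that rose, from 19.0, 19.0 and 21.8 to 22.7, 24.8 and 29.2 CPM (log2 change 0.36 ± 0.07, adjusted p = 0.0421), with no overlap between groups. FOXO1 and FOXO3 had 0.42 ± 0.14 (adjusted p = 0.135) and 0.44 ± 0.14 (adjusted p = 0.123). Of 16 ERK feedback genes DUSP4, a phosphatase of ERK, rose (log2 change 0.30 ± 0.06, adjusted p = 0.0409) and the median was 0.16. Of 23 immediate early transcription factors FOSL2 (log2 change 0.49 ± 0.09, adjusted p = 0.0317) and KLF2 rose and the median was 0.09. Of 28 genes of the ATF4 response CHAC1, which degrades glutathione, rose (log2 change 0.51 ± 0.09, adjusted p = 0.0260); the median was 0.11 with pair medians of 0.28, −0.07 and −0.01. IRS1, DUSP4, FOSL2 and CHAC1 all missed the threshold without pair 3, with adjusted p of 0.274, 0.248, 0.235 and 0.165, and without pair 1 as well. IRS1 also missed it without pair 2.

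Messages of the translation machinery differed little between the siRNAs. The 79 cytosolic ribosomal protein genes tested had log2 changes from −0.12 (RPS26) to 0.20 (RPS2) with a median of 0.00. None passed in edgeR or DESeq2, and 2 had an unadjusted p under 0.05, both higher. In the 25 translation factors with 5′ TOP mRNAs, the class whose translation follows mTORC1, the median was 0.05, 0 passed in either tool and 2 had an unadjusted p under 0.05. The 23 cap-binding initiation factors and 4E-BPs had a median of 0.04, the 42 ribosome biogenesis factors 0.06 and the 20 cytosolic aminoacyl-tRNA synthetases 0.11. In edgeR 0 of these passed, with 5, 4 and 1 at an unadjusted p under 0.05 and 1, 0 and 1 called by DESeq2. Pair medians of the synthetases were 0.29, −0.09 and 0.01, so their median was not shared by all pairs. Those of the 5′ TOP translation factors were 0.13, −0.05 and −0.004. CPM values are relative to each library's own total, so a change in the overall amount of polysomal RNA would not show in them.

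**Figure D4:**
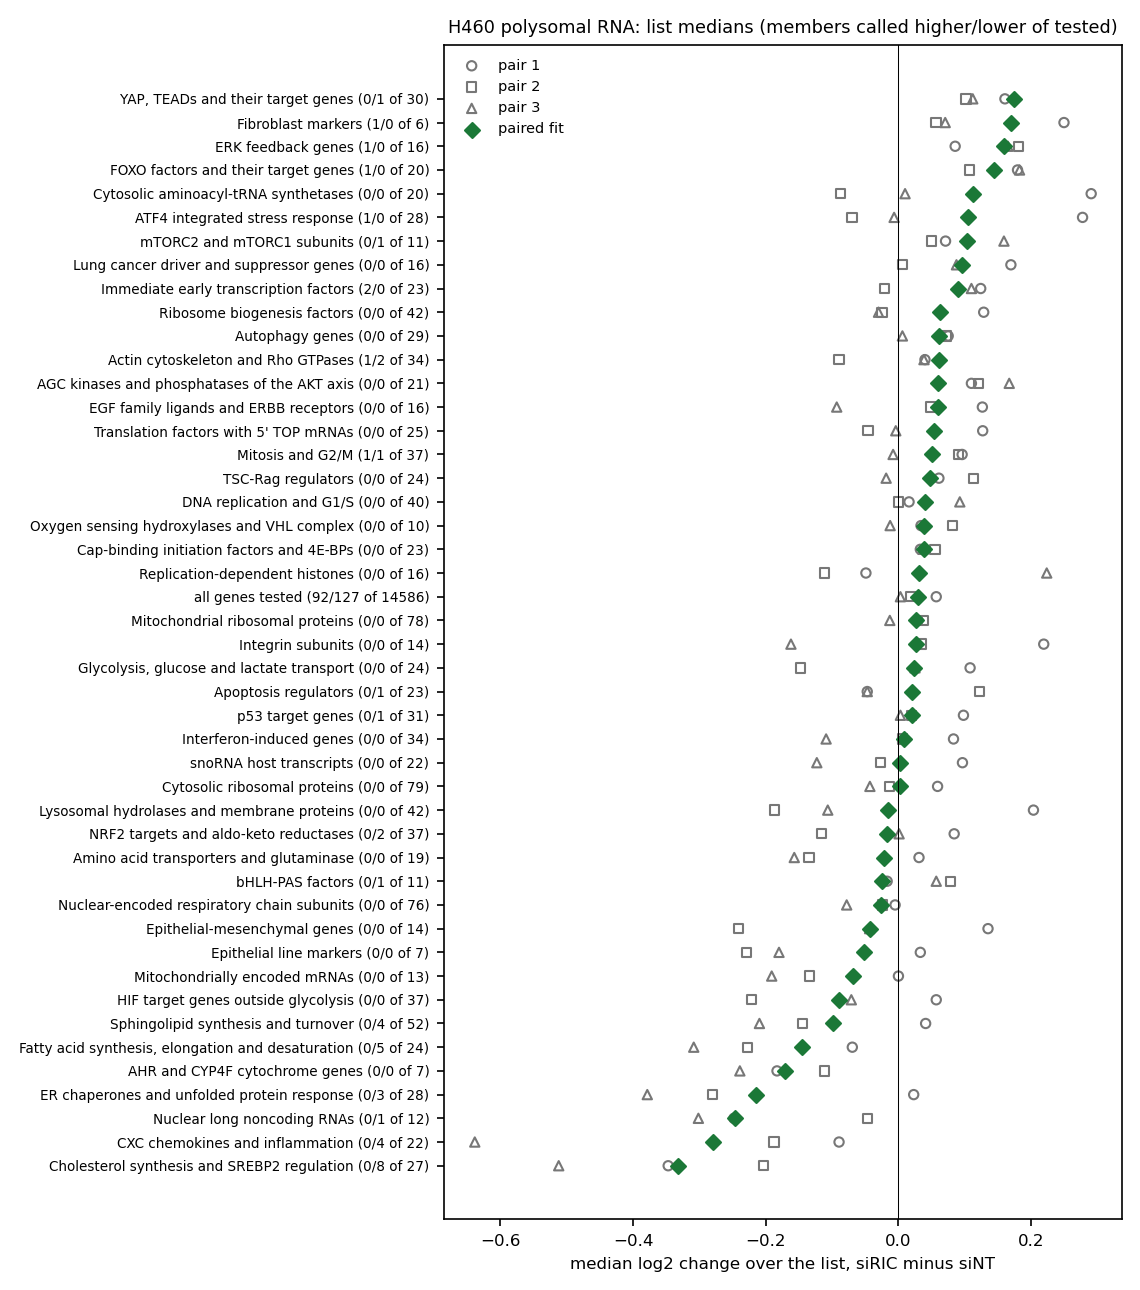
Median log2 change between siRIC and siNT in H460 polysomal RNA for each gene list with at least 5 tested members, with open symbols for the 3 pairs and diamonds for the paired fit. Numbers in brackets give members that rose, fell and were tested; the sterol, chemokine and long noncoding RNA lists (named nuclear in the plot) lie lowest, and the median of all genes is 0.03.

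Nuclear-encoded respiratory chain subunits (76 tested) had a median of −0.03 and mitochondrial ribosomal proteins (78 tested) 0.03. In edgeR 0 of either list passed, 10 and 6 had an unadjusted p under 0.05, and DESeq2 called 3 and 0. The YAP and TEAD list of 30 genes had a median of 0.17, with 22 above 0, yet IGFBP3, the 1 called member, fell; CCN1 had 0.20 ± 0.13 (adjusted p = 0.439) and CCN2 0.28 ± 0.12 (adjusted p = 0.257). Among 37 mitosis genes the kinesin KIF23 fell (−0.42 ± 0.07) and separase ESPL1 rose (0.49 ± 0.09). Among 34 genes of the actin cytoskeleton the tropomyosins TPM3 (−0.40 ± 0.07) and TPM4 (−0.31 ± 0.06) fell and LIMK1, the kinase of cofilin, rose (0.40 ± 0.07). The mitochondrial apoptosis protein DIABLO (−0.34 ± 0.07) and the long noncoding RNA NORAD (−0.35 ± 0.07) fell. NORAD, a mainly cytoplasmic RNA that binds PUMILIO proteins, was the 1 called gene of a list of 12 tested long noncoding RNAs, whose median was −0.25. In all, 27 of the 47 lists held 0 called genes in the edgeR paired fit.

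Changes in polysomal RNA ran alongside those in total RNA. Of the 127 genes that fell in polysomal RNA 126 lay below 0 in total RNA, where 46.0% of all genes did, and 81 also fell there; paired calls in total RNA were 142 lower (0.974%) and 36 higher (0.247%), 178 in all (1.22%). Of the 92 that rose in polysomal RNA 86 lay above 0 in total RNA and 10 also rose. RICTOR changed by −1.52 ± 0.12 in total RNA, ARNT by −0.52 ± 0.09, MSMO1 by −0.87 ± 0.15 and FADS2 by −0.92 ± 0.07. Total and polysomal libraries share their batch number, and the labels do not say whether they also share cells, so this is given as a description.

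Tested directly, the siRIC effect differed between polysomal and total RNA for 0 genes without the pairing in edgeR (0.0%), where 89 genes had an unadjusted p under 0.05 and DESeq2 called 1. With the pairing edgeR called 1 gene (0.00686%), the unnamed ENSG00000272921, singled out after its value was seen. It was at 6.09, 7.40 and 7.70 CPM under siNT and 6.63, 4.26 and 4.00 CPM under siRIC in polysomal RNA, and at 0, 3.34 and 5.65 CPM under siNT and 0 in all 3 siRIC libraries of total RNA, so its fitted difference rests on libraries at 0. For RICTOR the difference, polysomal minus total, was −0.33 ± 0.19 (adjusted p = 0.993), for ARNT −0.14 ± 0.13 (adjusted p = 0.993) and for HES4, which had −0.12 ± 0.11 in total RNA, 0.75 ± 0.15 (adjusted p = 0.569). TMEM160 had −0.13 ± 0.09 in total RNA and a difference of 0.69 ± 0.11 (adjusted p = 0.170).

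**Figure D5:**
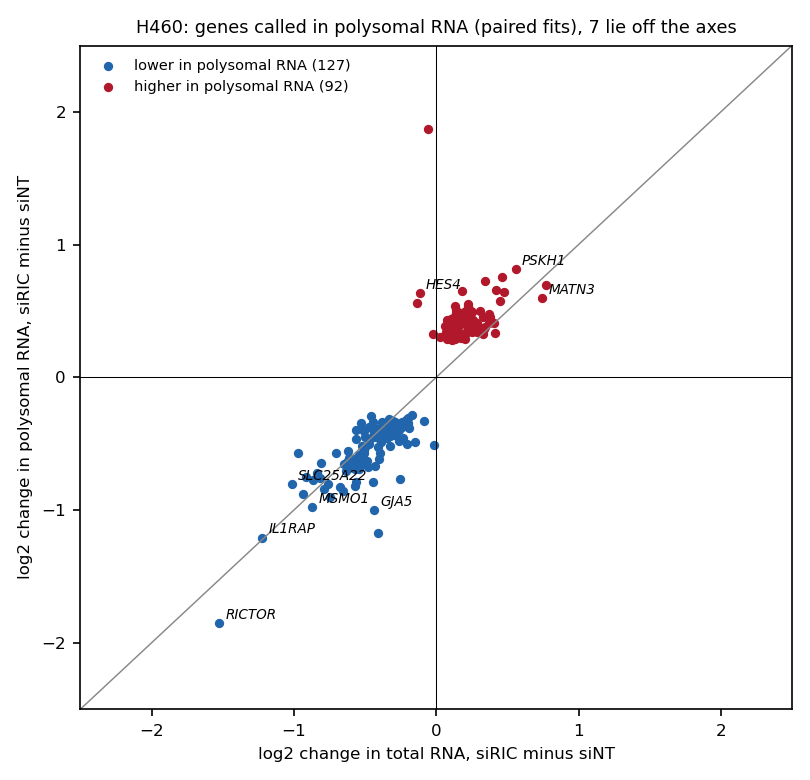
Log2 change between siRIC and siNT in polysomal RNA (vertical) against total RNA (horizontal) of H460 for the genes called in polysomal RNA, both from the paired fit; the diagonal marks equal change and 7 genes lie off the axes. Of the 127 genes that fell (blue) 126 lie left of 0 and of the 92 that rose (red) 86 lie right of 0; HES4 is among the red points left of 0.

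In A549, the other line, a lung adenocarcinoma line fitted with H460 over 24 libraries and 16507 genes, the paired polysomal comparison called 679 genes higher (4.11%) and 731 lower (4.43%), 8.54% in all; without the pairing 7 were called higher (0.0424%) and 31 lower (0.188%). Of the 127 genes that fell in H460 98 lay below 0 in A549, against 49.5% of all genes, and 43 fell there; of the 92 that rose 81 lay above 0 and 34 rose. TSPAN3 changed in A549 by −1.32 ± 0.07, QDPR by −1.29 ± 0.12, IGFBP3 by −0.81 ± 0.10, ARNT by −0.98 ± 0.13 and PSKH1 by 0.77 ± 0.10. The sterol list had a median of −0.09 in A549 polysomal RNA where FDFT1 (−0.34 ± 0.08) and MYLIP (−0.53 ± 0.16) fell, SCAP (0.32 ± 0.09) rose and MSMO1 had −0.40 ± 0.16.

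The difference between the lines was tested on its own. Without the pairing edgeR called 1 gene of 16507 (0.00606%), and with it 65, of which 31 (0.188%) had the higher and 34 (0.206%) the lower change in H460. DCLK1, a microtubule-associated kinase, passed both ways: it fell in H460, from 12.1, 12.9 and 19.2 to 8.86, 9.30 and 13.4 CPM, and rose in A549 by 2.81 ± 0.31. CXCL5 and AGR2, a secreted disulfide isomerase, fell in H460 and rose in A549 (0.54 ± 0.13 and 0.65 ± 0.15). IL1RAP and CXCL3, which fell in H460, had 0.23 ± 0.15 and 0.42 ± 0.19 in A549. The difference for FADS2 was −0.52 ± 0.13 (adjusted p = 0.0862) and for MSMO1 −0.59 ± 0.23 (adjusted p = 0.276), neither past the threshold.

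Some called features cannot be read as single genes. HNRNPUL2-BSCL2 and POC1B-GALNT4 are readthrough transcripts that share sequence with their parent genes; the first was at 0 in 5 polysomal libraries and at 2.65 CPM in the siRIC library of number 2, and POC1B-GALNT4 was at 4.25, 5.13 and 0 CPM under siRIC. RNVU1-7, a small nuclear RNA with near-identical copies, was at 8.17, 4.15 and 2.98 CPM under siNT and 0.932, 0 and 0 CPM under siRIC. No fold is given for these features because their fitted changes depend on libraries at 0.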

How the data were processed

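Per the labels' protocols, libraries came from a stranded kit that removes ribosomal RNA from total RNA, although polyA RNA is the molecule named in the labels. The authors deposited unnormalized estimated counts, merged from salmon over all libraries, per the file's name. Per the submitters' processing notes, bcl2fastq 2.20 and the build GRCh38 were used; versions of salmon and its index are not stated.

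Estimated counts were rounded, filtered with filterByExpr, scaled by TMM and tested in edgeR 4.0.16 (glmQLFit, glmQLFTest; R 4.3.3) over the 12 H460 libraries, 1 coefficient per group, with Benjamini-Hochberg adjustment over all genes tested. The unpaired design held no replicate term. The paired design added the number as a block within each fraction. The labels record the number as a batch, and deviations of same-numbered siNT and siRIC polysomal libraries from their group means correlated with r = 0.472, 0.573 and 0.748, against −0.579 to 0.166 for different numbers. Deviations from a mean of 3 libraries sum to 0, so positive values for the same number push those for different numbers below 0. An additive block over both fractions called 0 polysomal genes, and the block within fractions was chosen for the paired results after both counts were seen. DESeq2 1.42.0 served as the other tool. The code was tested on simulated data. The SE is the absolute log2 change over the square root of F. A549 was fitted with H460 in 24 libraries. Other alternatives were RLE scaling, no filter and leaving out libraries or pairs.

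Members and gene lists were chosen with earlier results of these data known. Named genes were RICTOR, ARNT and HIF1A; the 12 largest rises and falls with a conventional symbol, at least 5 CPM on average and 1 direction over 3 pairs, taken from paired calls because no unpaired call existed; and list members by smallest p or by role; some listed genes are counted but not reported here by name. Symbols were found for 60437 of 60666 IDs; positions are RefSeq's (GRCh38.p14). No label states that libraries stem from separate cultures, so the p-values may reflect technical spread only.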

Additional observations from a re-analysis of the deposited data

Results flagged for a closer look

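The siRIC effect in polysomal RNA differed between H460 and A549 in the paired test for 6 genes called in H460 with a mean of at least 5 CPM. For DCLK1 the difference of log2 changes, H460 minus A549, was −3.29 (adjusted p = 0.000426) with the pairing and −3.29 (adjusted p = 0.00934) without it. For IL1RAP it was −1.43 (adjusted p = 0.00621), for CXCL3 −1.32 (adjusted p = 0.0284), for CXCL5 −1.21 (adjusted p = 0.00776) and for AGR2 −1.21 (adjusted p = 0.0220). LBH differed in the other direction, by 1.14 (adjusted p = 0.00790): it was at 7.54, 7.70 and 8.52 CPM under siNT and 11, 10.7 and 11 CPM under siRIC in H460 and changed by −0.68 ± 0.11 in A549. DCLK1, CXCL5, AGR2 and LBH moved in opposite directions in the lines, each past the threshold in each line. Without the pairing the adjusted p of IL1RAP, CXCL3, CXCL5, AGR2 and LBH was at least 0.611. Without pair 3 the H460 change of DCLK1, AGR2 and LBH had adjusted p of 0.153, 0.0848 and 0.162, and DCLK1 and LBH also lost the call without pair 1.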

How the results depend on the processing

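Without the pairing the count of called polysomal genes was 0 in H460; it was 219 with the block within fractions, 100 with the block in the polysomal libraries alone, 7 with no filter, 1 with DESeq2, 2 without both number 3 polysomal libraries and 0 to 1 with 1 library left out. The paired count of 219 was 0 without the block, 0 with an additive replicate block, 0 in the polysomal libraries alone without the block and 100 with it, 1037 with no filter and 410 with DESeq2. It was 61, 620 and 13 without pair 1, 2 or 3 and 6 to 644 with 1 library left out; the paired alternatives other than the planned blocks were chosen after seeing the data. The polysomal minus total count of 0 was 1 with the block within fractions, 3 with no filter, 1 with DESeq2 and 0 to 1 with 1 library left out. The H460 minus A549 count of 1 was 3 with a replicate block, 65 with the block within fractions, 47 with no filter, 9 with DESeq2 and 0 to 2 with 1 library left out. In the unpaired fit the log2 change with 1 library left out ranged from −0.38 to 0.15 for HIF1A, highest without the siNT library of number 3, and from −1.09 to 0.00503 for CXCL2, −0.79 to 0.056 for ALDH3A1 and −0.76 to 0.010 for NSDHL, each highest without the siNT library of number 2. The cause of these shifts was not tested. The sterol list's median in the paired fits lay between −0.38 and −0.29 in 22 alternatives. Of the 219 paired calls 11 passed without pair 3.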

Other observations

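Called genes outside the lists are named here that were picked after their values were seen, so they carry no test as a group. They act in protein entry to and traffic from the endoplasmic reticulum: the translocon-associated subunits SSR1 and SSR3 (log2 changes −0.46 ± 0.07 and −0.46 ± 0.07), the signal recognition particle receptor subunits SRPRA (−0.35 ± 0.07) and SRPRB (−0.37 ± 0.08), the KDEL receptors KDELR2 (−0.44 ± 0.07) and KDELR3 (−0.41 ± 0.08), and the oligosaccharyltransferase subunit OSTC (−0.35 ± 0.07). SSR3, for example, was at 189, 294 and 284 CPM under siNT and 144, 223 and 187 CPM under siRIC. In A549 polysomal RNA KDELR2 fell (−0.35 ± 0.08) and SSR3 had −0.13 ± 0.08.

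Other falls outside the lists were also picked after their values were seen. AGR2, a secreted disulfide isomerase, was at 2022, 2341 and 3668 CPM under siNT and 1405, 1841 and 2133 CPM under siRIC (−0.55 ± 0.08), ASPH, an ER hydroxylase of aspartate and asparagine, changed by −0.60 ± 0.08 and the collagenase MMP1 by −0.65 ± 0.10. Among the rises outside the lists were CDK6, a kinase of the G1 phase (0.41 ± 0.07), PRKAA2, a catalytic subunit of AMP-activated kinase (0.36 ± 0.07), and the chromatin proteins HMGA1 (0.41 ± 0.08) and H1-10 (0.43 ± 0.09). CDK6 was at 51.2, 47.6 and 125 CPM under siNT and 75.3, 63.4 and 152 CPM under siRIC, highest in number 3 under both siRNAs. Without pair 3 none of the genes named here passed in the edgeR paired fit, with adjusted p from 0.0512 for ASPH to 0.253 for H1-10.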
